A study of Arabidopsis thaliana with 6 samples.

Results

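Of the 454 genes in the deposited expression table, 51 had a mean level in both mutant lines at or below 0.5 of the mean in wild-type seedlings and are described here. For each gene, the mean of the 2 libraries of a line was divided by the mean of the 2 Col-0 libraries, and a gene was kept when both ratios were at or below 0.5. This was met by 70 genes (15.4% of the table), of which 19 that belong to named groups, such as type-A response regulators and β-glucosidases, were set aside. Taken alone, the condition was met by 99 genes in the first line (*sap18* by its description, 21.8% of the table) and by 258 in *sr45* (56.8%). As the lower level against Col-0 is what chose the genes, it is given as a description without a test.

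The data are mRNA levels of whole *Arabidopsis thaliana* seedlings, measured by RNA sequencing in 6 libraries of 3 genotypes. The groups are *sap18*, *sr45* and the wild-type ecotype Col-0, and the *sap18* and *sr45* (*sr45-1*) mutants that the methods name are each a T-DNA insertion line. By the sample labels all seedlings were 11 days old, whereas a figure legend of the study gives a slightly younger age. They were raised at 22°C on MS medium under a photoperiod of 16 h light and 8 h dark, and each library started from 2 µg of RNA. Levels are cRPKM, that is, reads per kilobase of mappable gene length, scaled by the mapped reads of the library. No source used here says whether libraries of a genotype were grown separately, and p-values therefore cover the spread among these libraries and nothing more.

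The identity of the first pair of libraries is uncertain. Their descriptions, the series design and the study's text name *sap18*, whereas their titles and genotype label name *sap18sr45*. *SR45* mRNA was 20.9 and 23.1 cRPKM in these libraries, 5.39 and 4.98 in *sr45*, and 23.1 and 19.4 in Col-0. *SAP18* mRNA was 936 and 900 cRPKM in these libraries, against 75.6 and 94.3 in *sr45* and 76.6 and 83.7 in Col-0. *SR45* was thus lower than in Col-0 in the *sr45* libraries and not in the pair whose titles name both mutations, and *SAP18* was 11.4 times its Col-0 mean in the pair named after its mutation. For this reason the pair is called the *sap18*-labelled libraries below. The name follows their descriptions and not their genotype label, and the doubt applies to each of their values. The table holds only genes that the authors called changed in at least 1 line. None of 5 leaf mesophyll, 6 root and 8 tapetum and pollen marker genes is in it, so the tissue could not be checked by markers.

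SR45 is a serine/arginine-rich RNA-binding protein, and SAP18 is a small protein with a ubiquitin-like fold. Together with ACINUS they make up the complex known as ASAP, for apoptosis and splicing. It sits on spliced messenger RNA next to the exon junction complex and takes part in the choice of splice sites. The study reports more retained introns in mutants of the complex. In animals SAP18 is also known as a partner of the Sin3 histone deacetylase complex. A lower mRNA level in whole seedlings can reflect fewer cells of the type that makes an mRNA or less of it per cell, and these cannot be told apart here.

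The only member that encodes a microRNA was *MIR863A*. Its 2 mature products are shown because the name refers to them, whereas the measured values belong to the precursor transcript. They are given 5′ to 3′ in DNA letters with the seed, bases 2 to 8, in capitals. Both lie on the plus strand of chromosome 4 in RefSeq's TAIR10.1 annotation, ath-miR863-5p at chr4:7846644-7846664 and ath-miR863-3p at chr4:7846835-7846855.
ath-miR863-5p: tTATGTCTtgttgatctcaat
ath-miR863-3p: tTGAGAGCaacaagacataat
The 2 arms of the hairpin do not share a seed.

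**Figure D1:**
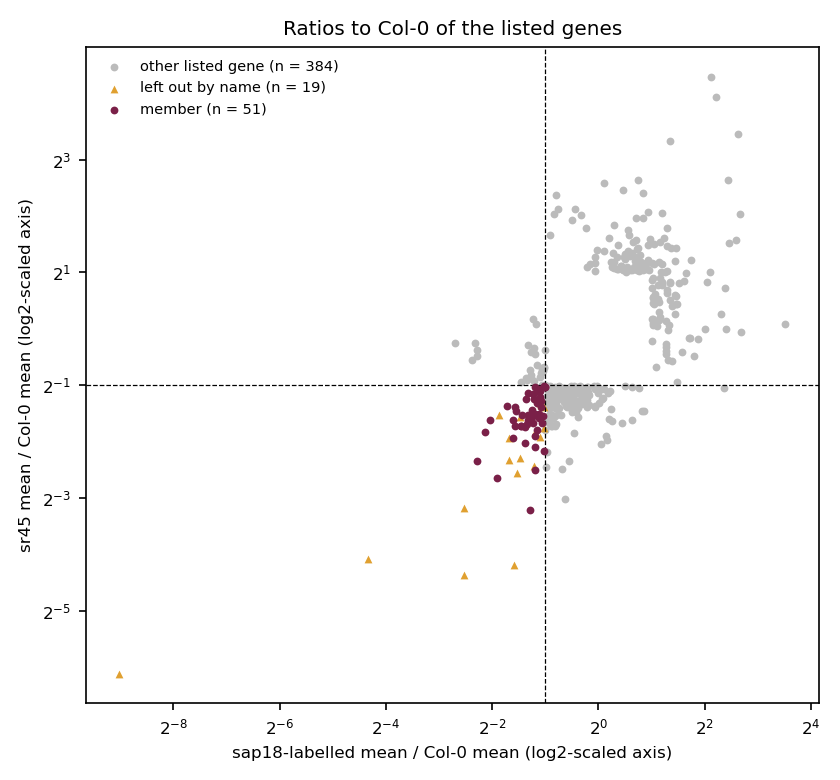
Ratio to the Col-0 mean of every listed gene, in the *sap18*-labelled libraries (horizontal axis) and in *sr45* (vertical axis), both on log2-scaled axes, with dashed lines at 0.5. The 51 members (dark points) fill the lower left corner together with the 19 genes left out by name (triangles), and the other 384 genes are grey.

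Across the 51 members, the median ratio to Col-0 was 0.426 in the *sap18*-labelled libraries (lowest 0.206) and 0.345 in *sr45* (lowest 0.108). The same medians over all 454 listed genes were 0.752 in the *sap18*-labelled libraries and 0.482 in *sr45*. In Col-0 the members averaged between 6.41 and 140 cRPKM with a median of 16.0, and 13 of them were below 10 cRPKM. By the study's methods, a gene had to exceed 5 cRPKM in every replicate of 1 or both genotypes compared. Members with line libraries below 5 cRPKM could pass this only through Col-0, so the lower bound in Col-0 follows in part from the filter. The mean can hide a single high library. All 4 ratios of a single line library to a single Col-0 library were at or below 0.5 for 26 of 51 members in the *sap18*-labelled libraries (10.6% of the table) and for 34 of 51 in *sr45* (30.2% of the table), and for 22 members in both lines. At the edge of the rule, *GGPP6* (ratios 0.4996 in the *sap18*-labelled libraries and 0.490 in *sr45*), *AT1G60610* (0.496 and 0.486) and *AT1G11930* (0.494 and 0.222) lay just inside. Just outside lay *AT5G03830* (0.500137 in the *sap18*-labelled libraries and 0.483 in *sr45*), *AT2G26810* (0.478 and 0.500306) and *SBE2.1* (0.501 and 0.289).

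**Figure D2:**
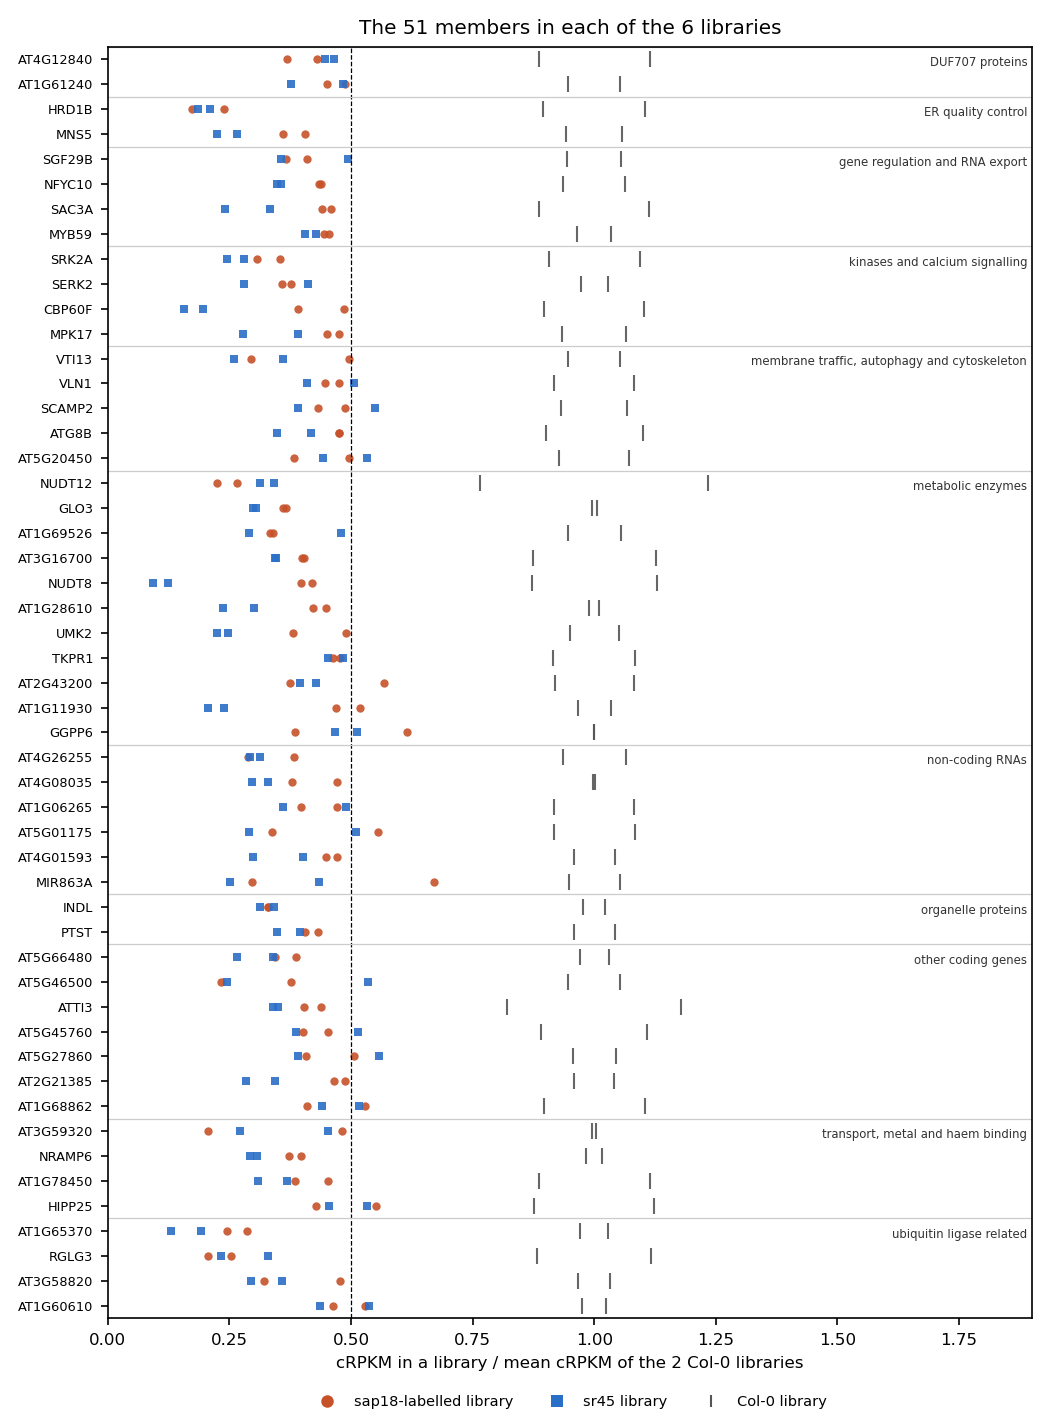
Level of each of the 51 members in each of the 6 libraries, divided by the mean of the 2 Col-0 libraries and grouped by role (circles, *sap18*-labelled libraries; squares, *sr45*; bars, Col-0). The dashed line marks 0.5, and 14 members, *MIR863A* and *GGPP6* among them, have at least 1 line library to its right although the means of both lines are not.

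Among the 51 members, the lowest levels relative to Col-0 in both lines together were those of *HRD1B* (AT1G65040); some of the 19 genes left out by name were lower still. *HRD1B* encodes a RING-type ubiquitin ligase of endoplasmic reticulum-associated degradation (ERAD), the route by which misfolded proteins of the endoplasmic reticulum are handed to the proteasome. *HRD1B* had 5.63 and 7.77 cRPKM in the *sap18*-labelled libraries, 6.01 and 6.80 in *sr45*, and 29.0 and 35.8 in Col-0. All 4 line libraries lay far below both Col-0 libraries, with ratios of 0.206 and 0.197 (4.84-fold lower in the *sap18*-labelled libraries and 5.07-fold lower in *sr45*), and the lines overlapped. The log2 difference between the lines, *sap18*-labelled libraries minus *sr45*, was 0.04 with a 95% interval from -0.40 to 0.49. *HRD1B* lies on the minus strand of chromosome 1 of TAIR10.1, from 24159685 to 24163669, and has 9 exons. *MNS5* (AT1G27520), an α-mannosidase of glycosyl hydrolase family 47 that acts in the same route by trimming N-glycans, had 13.8 and 15.5 cRPKM in the *sap18*-labelled libraries, 10.2 and 8.60 in *sr45*, and 40.6 and 36.1 in Col-0. The 3 genotypes did not overlap for *MNS5*, and *sr45* was lowest. Of 8 ERAD genes looked up, these 2 were in the table. Both are members, against 51 of 454 genes in the table as a whole, in a list drawn up with these members known.

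A G-box (CACGTG, a site bound by bZIP and bHLH transcription factors) lies before the start of *HRD1B*, *NUDT8*, *GLO3* and *PTST*, and these windows are shown. Each is given 5′ to 3′ on the strand of the gene in TAIR10.1, with the motif in capitals and 8 bases on either side. They lie at chr1:24163726-24163747 and chr1:24163692-24163713 (*HRD1B*, minus), chr5:19183493-19183514 (*NUDT8*, plus), chr3:4693249-4693270 (*GLO3*, minus) and chr5:15935300-15935321 (*PTST*, minus), and the first base of the motif is 70 and 36 bases before the annotated start of *HRD1B*, 22 before that of *NUDT8*, 129 before that of *GLO3* and 43 before that of *PTST*.
HRD1B, distal: ctcttctaCACGTGtctttgtc
HRD1B, proximal: ctcttataCACGTGtcgttata
NUDT8: tggaaattCACGTGtattttgt
GLO3: taagctgaCACGTGgttcagat
PTST: gatttacgCACGTGttttgtag
Within 250 bases before the start, on either strand, a G-box was present in 4 of 51 members (7.84%), 8.89% of the 450 listed genes with a gene model and 5.39% of all 37899 annotated genes. A match is a description of these letters and not evidence of binding.

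Members with roles in membrane traffic, autophagy and the cytoskeleton had ratios between 0.310 and 0.488. *VTI13* (AT3G29100), a v-SNARE that takes part in vesicle fusion, had 2.58 and 4.33 cRPKM in the *sap18*-labelled libraries, 3.16 and 2.27 in *sr45*, and 8.28 and 9.22 in Col-0. *ATG8B* (AT4G04620), a ubiquitin-like protein that is attached to the autophagosome membrane, had 19.4 and 19.4 cRPKM in the *sap18*-labelled libraries, 17.0 and 14.2 in *sr45*, and 36.7 and 44.8 in Col-0. Neither gene had a line library above the lower Col-0 library, and the lines overlapped for *VTI13* but not for *ATG8B*. *SCAMP2* (AT1G03550, *SCAMP4* in RefSeq), a secretory carrier membrane protein, had ratios of 0.460 in the *sap18*-labelled libraries and 0.470 in *sr45*. AT1G03545 overlaps *SCAMP2* over 2016 bp on the opposite strand. The methods name a stranded library kit, but whether counting used the strand is not given in the sources used here, so reads of the 2 genes may not be told apart. *VLN1* (AT2G29890), a villin that bundles actin filaments, had 4.10 and 3.85 cRPKM in the *sap18*-labelled libraries, 3.52 and 4.36 in *sr45*, and 9.31 and 7.90 in Col-0. With ratios of 0.462 and 0.458 it was almost equally low in both lines. *AT5G20450*, annotated as a myosin, had ratios of 0.439 in the *sap18*-labelled libraries and 0.488 in *sr45*. Of 14 genes of the VTI1, SCAMP and ATG8 families looked up, 3 were in the table. All of these 3 are members, against 51 of 454 genes in the table as a whole, in a list drawn up with these members known.

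Among the protein kinases, *SRK2A* (AT1G10940, *SNRK2.4*), a kinase activated by osmotic stress, had 21.6 and 24.9 cRPKM in the *sap18*-labelled libraries, 19.8 and 17.2 in *sr45*, and 63.9 and 77.1 in Col-0. *SERK2* (AT1G34210), a leucine-rich repeat receptor kinase that serves as a co-receptor, had 10.08 and 10.6 cRPKM in the *sap18*-labelled libraries, 7.89 and 11.6 in *sr45*, and 28.9 and 27.3 in Col-0. The 2 lines were separate for *SRK2A* (ratios 0.330 and 0.263) and overlapped for *SERK2* (0.368 and 0.346). *MPK17* (AT2G01450), a mitogen-activated protein kinase, had 66.6 and 63.2 cRPKM in the *sap18*-labelled libraries, 38.9 and 54.9 in *sr45*, and 149 and 131 in Col-0, where its mean was the highest of all members. Of 31 genes of the MPK, SnRK2 and SERK families looked up, 4 were in the table. The fourth, *SERK4* (AT2G13790), had 9.04 and 10.3 cRPKM in the *sap18*-labelled libraries, 6.17 and 3.602 in *sr45*, and 5.75 and 3.48 in Col-0, and so was not low in either line.

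The calmodulin-binding protein gene *CBP60F* (AT4G31000) differed more between the lines. It had 7.76 and 6.26 cRPKM in the *sap18*-labelled libraries, 2.51 and 3.13 in *sr45*, and 17.6 and 14.3 in Col-0. No libraries of the 3 genotypes overlapped, and the mean was 2.28-fold below Col-0 in the *sap18*-labelled libraries and 5.67-fold below it in *sr45*.

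A group of 4 members acts in gene regulation and RNA export. *MYB59* (AT5G59780), a MYB transcription factor, had 40.3 and 41.3 cRPKM in the *sap18*-labelled libraries, 36.7 and 38.7 in *sr45*, and 87.5 and 93.7 in Col-0. *NFYC10* (AT5G38140, *NF-YC12* in RefSeq), a subunit of the CCAAT-binding nuclear factor Y, had 27.9 and 28.2 cRPKM in the *sap18*-labelled libraries, 22.3 and 22.9 in *sr45*, and 68.4 and 60.2 in Col-0. Replicates of these 2 genes lay close together, and all 3 genotypes were separate from each other. *SAC3A* (AT2G39340), of the family whose yeast member is the scaffold of the TREX-2 mRNA export complex, had 11.1 and 10.7 cRPKM in the *sap18*-labelled libraries, 5.86 and 8.09 in *sr45*, and 27.0 and 21.5 in Col-0. *SGF29B* (AT5G40550), named after a histone-reading subunit of the SAGA coactivator complex, was low throughout, at 2.70 and 2.41 cRPKM in the *sap18*-labelled libraries, 3.24 and 2.34 in *sr45*, and 6.94 and 6.21 in Col-0. For *SAC3A* the genotypes were separate, and for *SGF29B* the 2 lines overlapped. Looked up here were 22 genes, *MYB59* and its paralog *MYB48* with the SGF29, SAC3, NF-YC and CBP60 genes. The 5 of them in the table are all members, against 51 of 454 genes in the table as a whole. This list was drawn up with these members known, so the count does not set its genes apart. Other MYB genes were not looked up, and *MYB51*, *MYB70*, *MYB73* and *MYB77* are in the table without being members. In that order, their ratios were 1.67, 1.83, 2.43 and 2.02 in the *sap18*-labelled libraries and 2.65, 0.364, 0.830 and 0.864 in *sr45*.

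Besides *HRD1B*, a further 4 members carry annotations grouped here as related to ubiquitin ligases. *RGLG3* (AT5G63970), a RING-type ubiquitin ligase with a copine domain, had 2.90 and 2.37 cRPKM in the *sap18*-labelled libraries, 2.68 and 3.78 in *sr45*, and 10.14 and 12.8 in Col-0. *AT1G65370*, a TRAF-like protein, had 22.5 and 26.4 cRPKM in the *sap18*-labelled libraries, 11.98 and 17.6 in *sr45*, and 89.4 and 94.8 in Col-0. *RGLG3* was 4.36-fold below Col-0 in the *sap18*-labelled libraries and 3.55-fold below it in *sr45*, whereas *AT1G65370* was 3.77-fold below Col-0 in the *sap18*-labelled libraries and 6.23-fold below it in *sr45*. The remaining members of this group are the F-box gene *AT3G58820*, with ratios of 0.3999 in the *sap18*-labelled libraries and 0.326 in *sr45*, and *AT1G60610*, of the S-ribonuclease binding protein family, at the edge of the rule.

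Metabolic enzymes made up the largest group, with 11 members, and among them was the member with the lowest ratio of all. *NUDT8* (AT5G47240), a nudix hydrolase, had 3.99 and 4.23 cRPKM in the *sap18*-labelled libraries, 0.940 and 1.24 in *sr45*, and 8.77 and 11.4 in Col-0. Its ratio was 0.409 in the *sap18*-labelled libraries (2.45-fold lower) and 0.108 in *sr45* (9.23-fold lower). Nudix hydrolases cleave nucleoside diphosphates that are linked to another group. A second one, *NUDT12* (AT1G12880), had 6.89 and 5.82 cRPKM in the *sap18*-labelled libraries, 8.89 and 8.09 in *sr45*, and 19.9 and 32.0 in Col-0, so both *sap18*-labelled libraries lay below both *sr45* libraries, the reverse of *NUDT8*. The log2 difference between the lines for *NUDT12* was -0.37 (95% interval from -0.90 to 0.16, adjusted p = 0.18, limma), and its Col-0 libraries were the furthest apart of any member relative to their mean. Of 18 *NUDT* genes looked up, these 2 were in the table.

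*UMK2* (AT4G25280), annotated as a P-loop nucleoside triphosphate hydrolase, had 17.2 and 22.2 cRPKM in the *sap18*-labelled libraries, 10.2 and 11.2 in *sr45*, and 43.0 and 47.5 in Col-0. *AT1G11930*, a putative pyridoxal phosphate-dependent enzyme, had 28.1 and 31.1 cRPKM in the *sap18*-labelled libraries, 12.3 and 14.3 in *sr45*, and 57.9 and 62.0 in Col-0. *AT1G28610*, a lipase of the GDSL family, had 9.23 and 9.81 cRPKM in the *sap18*-labelled libraries, 5.17 and 6.57 in *sr45*, and 21.7 and 22.1 in Col-0. In each of these 3 genes the *sap18*-labelled libraries lay between those of *sr45* and those of Col-0, with no overlap. *GLO3* (AT3G14150, *HAOX2* in RefSeq), a peroxisomal oxidase of 2-hydroxy acids, had 16.4 and 16.1 cRPKM in the *sap18*-labelled libraries, 13.6 and 13.3 in *sr45*, and 44.9 and 44.4 in Col-0, with no overlap between genotypes. Its paralog *GLO4* (AT3G14130) lies 2106 bp away and had ratios of 0.493 in the *sap18*-labelled libraries and 0.620 in *sr45*, so it met the rule in the *sap18*-labelled libraries alone. Reads shared by such close copies could be split between them in counting, so the values of both are uncertain to that extent.

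*TKPR1* (AT4G35420, *DRL1* in RefSeq), a reductase known for the synthesis of sporopollenin, the polymer of the pollen wall, had 12.8 and 13.1 cRPKM in the *sap18*-labelled libraries, 12.5 and 13.3 in *sr45*, and 25.3 and 29.9 in Col-0. It was the only one of 8 sporopollenin genes in the table, and its 2 lines overlapped. *GGPP6* (AT1G49530), a geranylgeranyl pyrophosphate synthase, had 5.78 and 9.25 cRPKM in the *sap18*-labelled libraries, 7.02 and 7.73 in *sr45*, and 15.04 and 15.06 in Col-0, and is the only coding member with 1 exon. *AT3G16700*, of the fumarylacetoacetate hydrolase family, had ratios of 0.401 in the *sap18*-labelled libraries and 0.345 in *sr45*. The 2 annotated methyltransferases that use S-adenosylmethionine were *AT1G69526*, with ratios of 0.336 in the *sap18*-labelled libraries and 0.385 in *sr45*, and *AT2G43200*, with ratios of 0.471 and 0.411.

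In the organelles, *INDL* (AT4G19540, *INDH* in RefSeq), an iron-sulfur protein needed for the assembly of mitochondrial complex I, had nearly the same mean in both lines. It had 7.99 and 7.96 cRPKM in the *sap18*-labelled libraries, 8.31 and 7.59 in *sr45*, and 24.8 and 23.7 in Col-0. The log2 difference between the lines was 0.01, with a 95% interval from -0.33 to 0.34. *PTST* (AT5G39790), which brings granule-bound starch synthase to starch granules in the chloroplast, had 8.14 and 8.67 cRPKM in the *sap18*-labelled libraries, 6.97 and 7.91 in *sr45*, and 20.9 and 19.2 in Col-0. Of 10 starch granule genes looked up, the other one in the table was the branching enzyme gene *SBE2.1*, which missed the rule narrowly, with 8.24 and 9.76 cRPKM in the *sap18*-labelled libraries, 5.44 and 4.93 in *sr45*, and 19.1 and 16.8 in Col-0.

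Among the transport and metal-binding members, *NRAMP6* (AT1G15960), a metal ion transporter, had 3.14 and 3.36 cRPKM in the *sap18*-labelled libraries, 2.47 and 2.58 in *sr45*, and 8.30 and 8.57 in Col-0. *HIPP25* (AT4G35060), which carries a heavy-metal-associated domain, had 3.58 and 2.78 cRPKM in the *sap18*-labelled libraries, 2.96 and 3.47 in *sr45*, and 5.70 and 7.31 in Col-0. The genotypes were separate for *NRAMP6*, and the lines overlapped for *HIPP25*, which had the highest ratio of any member in *sr45*, 0.494. Of 11 *NRAMP* and *HIPP* genes looked up, these 2 were in the table. Other genes of metal transport were not looked up. *AT1G78450*, a haem-binding protein of the SOUL family, had ratios of 0.419 in the *sap18*-labelled libraries and 0.339 in *sr45*. The solute carrier gene *AT3G59320* had 2.97 and 6.94 cRPKM in the *sap18*-labelled libraries, 3.92 and 6.54 in *sr45*, and 14.4 and 14.5 in Col-0, and its 2 *sap18*-labelled libraries were 2.34-fold apart. All 4 of its line libraries were still below 0.5 of either Col-0 library.

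Both listed genes of the DUF707 family, out of 11 looked up, are members, against 51 of 454 genes in the table as a whole. The family was chosen with these members known. *AT4G12840* had 2.75 and 2.37 cRPKM in the *sap18*-labelled libraries, 2.87 and 2.99 in *sr45*, and 5.68 and 7.14 in Col-0. *AT1G61240* had 6.25 and 6.78 cRPKM in the *sap18*-labelled libraries, 6.71 and 5.22 in *sr45*, and 14.6 and 13.1 in Col-0. *AT4G12840* was, after *NUDT12*, the second member whose *sap18*-labelled libraries both lay below both *sr45* libraries.

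The 7 other coding members have few annotations in common. *AT2G21385*, annotated as an uncharacterized protein, had 45.6 and 43.3 cRPKM in the *sap18*-labelled libraries, 26.5 and 32.0 in *sr45*, and 89.4 and 97.2 in Col-0. *ATTI3* (AT2G43530), a knottin of the trypsin inhibitor family, had 50.0 and 54.4 cRPKM in the *sap18*-labelled libraries, 43.5 and 42.2 in *sr45*, and 102 and 146 in Col-0. Both were abundant, and neither had overlapping genotypes. *AT5G46500* and *AT5G66480* had ratios of 0.305 and 0.366 in the *sap18*-labelled libraries and of 0.389 and 0.302 in *sr45*. The WD40 repeat gene *AT5G45760* and the uncharacterized genes *AT5G27860* and *AT1G68862* had ratios of 0.426, 0.457 and 0.469 in the *sap18*-labelled libraries and of 0.451, 0.474 and 0.479 in *sr45*.

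A further 6 members are non-coding. The most abundant, *AT4G08035*, had 30.3 and 37.6 cRPKM in the *sap18*-labelled libraries, 23.7 and 26.3 in *sr45*, and 80.0 and 79.8 in Col-0, with no overlap between genotypes. *AT4G01593* had 24.5 and 25.7 cRPKM in the *sap18*-labelled libraries, 16.4 and 21.9 in *sr45*, and 52.4 and 57.0 in Col-0. It overlaps AT4G01595 over 1268 bp on the opposite strand, so its reads may not be told apart from those of that gene. The same holds for *AT1G06265* (ratios 0.434 in the *sap18*-labelled libraries and 0.425 in *sr45*), which overlaps AT1G06260 over 1156 bp, and for *AT5G01175* (0.447 and 0.3999), which overlaps AT5G01180 over 198 bp. *AT4G26255* had ratios of 0.336 in the *sap18*-labelled libraries and 0.302 in *sr45*.

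*MIR863A* (AT4G13494), the precursor of the mature sequences printed above, had 10.01 and 22.6 cRPKM in the *sap18*-labelled libraries, 8.52 and 14.6 in *sr45*, and 32.0 and 35.5 in Col-0. Its 2 *sap18*-labelled libraries were 2.26-fold apart and overlapped those of *sr45*, while all 4 line libraries were below Col-0. The annotated precursor, from 7846597 to 7846899 on the plus strand of chromosome 4, shares 178 of its 303 bases with AT4G13495 on the same strand. Reads that lie within the shared bases cannot be told apart. The ratios of AT4G13495 were 0.311 in the *sap18*-labelled libraries and 0.200 in *sr45*. *MIR850A* (AT4G13493), 670 bp away, had ratios of 0.439 in the *sap18*-labelled libraries and 0.280 in *sr45*. Levels of mature microRNAs were not measured.

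The 2 lines were then compared with each other, a contrast that does not use Col-0 and in which the rule treats both lines alike, although requiring both ratios to be at or below 0.5 limits how far the lines can differ. In limma, fitted to log2(cRPKM + 1) of all 6 libraries and adjusted over the 454 listed genes by the Benjamini-Hochberg method at 0.05, 9 of 51 members were higher in the *sap18*-labelled libraries than in *sr45* (17.6%, against 44.3% of the table) and 0 were lower (against 14.1% of the table, and 58.4% for either direction). Selection acts on the shares of the table too, since it also holds genes low in 1 line only. Of the 188 listed genes at or below 0.5 of Col-0 in *sr45* alone, 67.6% were called higher in the *sap18*-labelled libraries. The call was missed by 42 members, and without adjustment 11 of 51 passed 0.05, all higher in the *sap18*-labelled libraries, the further 2 being *MPK17* and *AT4G08035*. The median log2 difference was 0.14 over the members (from -0.37 to 1.29) and 0.40 over all listed genes. Centring subtracts this 0.40 from every gene and thereby moves calls from higher to lower, and a table of called genes, 56.8% of which were at or below 0.5 of Col-0 in *sr45*, is no neutral reference for it. After centring, 3 members were higher in the *sap18*-labelled libraries (*NUDT8*, *AT1G11930* and *CBP60F*) and 4 were lower (*NUDT12*, *RGLG3*, *AT4G12840* and *AT5G20450*). The count of 9 also depended on single libraries, and was 4 without *sap18* replicate 1, 3 without *sap18* replicate 2 and 5 without *sr45* replicate 1. Both *sap18*-labelled libraries lay above both *sr45* libraries for 23 of 51 members (63.2% of the table) and below them for 2 (24.4% of the table), and the lines overlapped for the other 26.

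**Figure D3:**
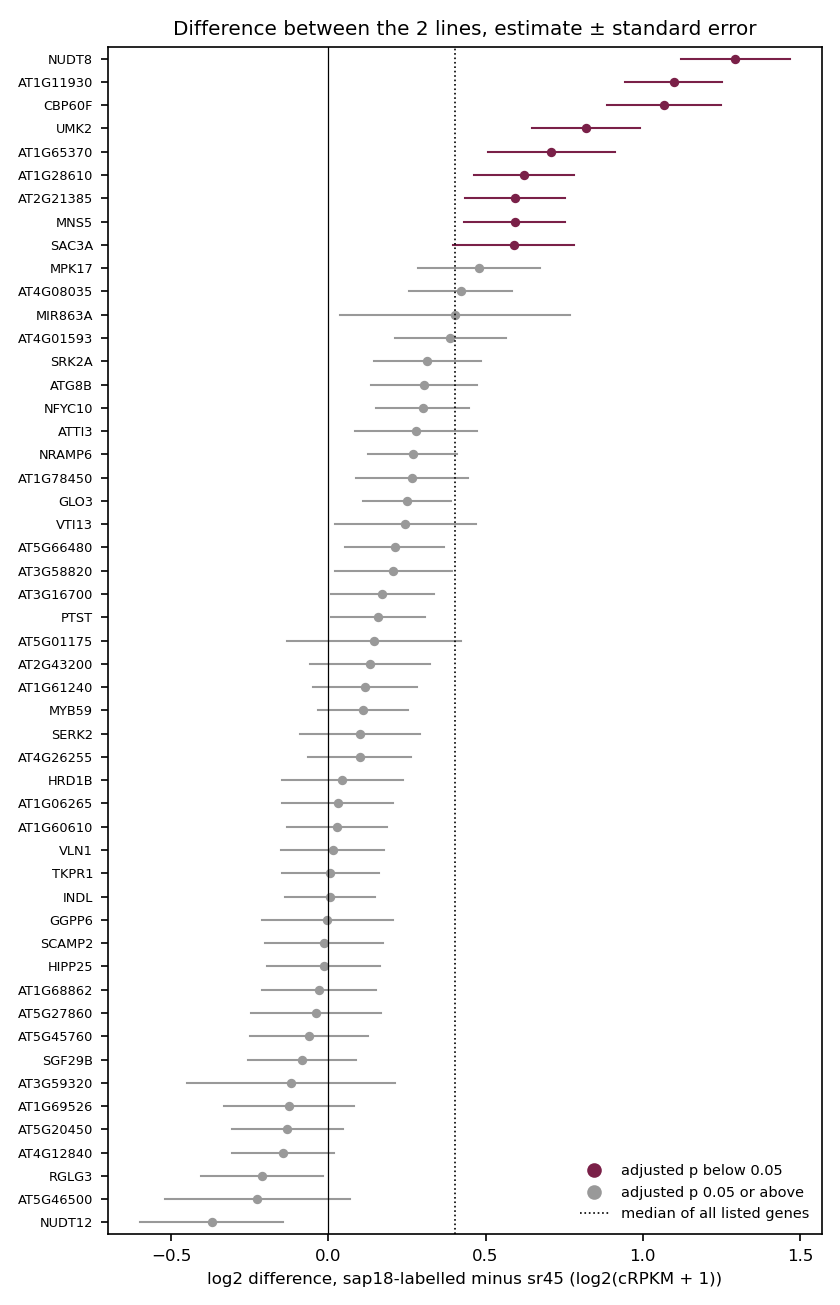
Log2 difference between the lines, *sap18*-labelled libraries minus *sr45*, on the log2(cRPKM + 1) scale for each of the 51 members, with its standard error from limma. The 9 dark points had an adjusted p below 0.05, all to the right of 0, and the dotted line is the median of all 454 listed genes, 0.40.

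With a pseudocount of 1, the largest difference was in *NUDT8*, whose *sap18*-labelled libraries exceeded *sr45* by 1.29 on the log2 scale (standard error 0.17, 95% interval from 0.89 to 1.70, limma adjusted p = 0.00087). It was followed by *AT1G11930*, with a difference of 1.098 (standard error 0.15, 95% interval from 0.74 to 1.46, adjusted p = 0.0010), and *CBP60F*, with 1.07 (standard error 0.18, 95% interval from 0.65 to 1.49, adjusted p = 0.0024). These 3 genes, a nudix hydrolase, a putative pyridoxal phosphate enzyme and a calmodulin-binding protein, kept the call in every alternative tried, with an adjusted p of at most 0.027. These alternatives are not all separate tests, since every listed gene passed the filter on low values, and leaving out either Col-0 library gave the same fit as using the 4 line libraries alone. The size of the difference depended on the pseudocount for *NUDT8*, with 1.83 at a pseudocount of 0.1 and 0.58 at a pseudocount of 5, where the differences of *AT1G11930* (0.92), *UMK2* (0.65) and *CBP60F* (0.62) were larger. *UMK2* was higher in the *sap18*-labelled libraries by 0.82 (standard error 0.17, adjusted p = 0.0058), and lost the call after centring and without *sap18* replicate 2.

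Differences of the other 5 were smaller, and each lost the call after centring, without *sap18* replicate 1 and without *sap18* replicate 2, as well as without *sr45* replicate 2 for *MNS5* and without *sr45* replicate 1 for the other 4. The TRAF-like gene *AT1G65370* differed by 0.71 (standard error 0.20, limma adjusted p = 0.018) and the lipase gene *AT1G28610* by 0.62 (standard error 0.16, adjusted p = 0.013). *MNS5* and *AT2G21385* both differed by 0.59 (standard error 0.16 for each), with an adjusted p of 0.016 for *MNS5* and 0.015 for *AT2G21385*. *SAC3A* also differed by 0.59 (standard error 0.19, adjusted p = 0.030). Of the families and routes looked up, the same test called 1 of 2 listed ERAD genes (*MNS5*), 1 of 2 *NUDT* genes (*NUDT8*), 1 of 4 kinase genes (*SERK4*), 1 of 2 starch granule genes (*SBE2.1*) and 2 of 5 regulators (*CBP60F* and *SAC3A*) higher in the *sap18*-labelled libraries, and 0 of any of them lower. With 44.3% of the table called higher, counts this small do not set these families apart. None of the listed VTI1, SCAMP, ATG8, sporopollenin, *NRAMP*, *HIPP* or DUF707 genes passed it. All 9 members with a call had both *sap18*-labelled libraries above both *sr45* libraries. Of the 42 members without a call, the interval was narrow around 0 for a few such as *INDL*, whereas for *AT3G59320* it reached from -0.89 to 0.65 and for *MIR863A* from -0.44 to 1.25.

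Gene structure was compared next, as it was not used by the rule and as both proteins act in splicing. The members comprise 45 protein-coding and 6 non-coding genes. The coding members had a median of 7 exons in their longest transcript, the same as the 184 coding genes at or below 0.5 of Col-0 in *sr45* alone, against 4 for the 427 coding genes of the table and 4 for 27444 nuclear coding genes of TAIR10.1. Of the coding members, 1 of 45 had a single exon (2.22%), against 8.15% of the genes low in *sr45* alone, 19.9% of the listed and 20.5% of all nuclear coding genes. Those with 10 or more exons were 15 of 45 (33.3%), against 34.2% of the genes low in *sr45* alone, 21.8% of the listed and 15.2% of all coding genes. *VLN1* had the most exons of the members, 22, followed by *AT1G61240* with 17 and *MNS5* with 15. The median length of the longest transcript was 1536 bases for coding members and 1598 for listed coding genes. No test was made of these shares, and the exon numbers resembled those of genes low in *sr45* alone.

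**Figure D4:**
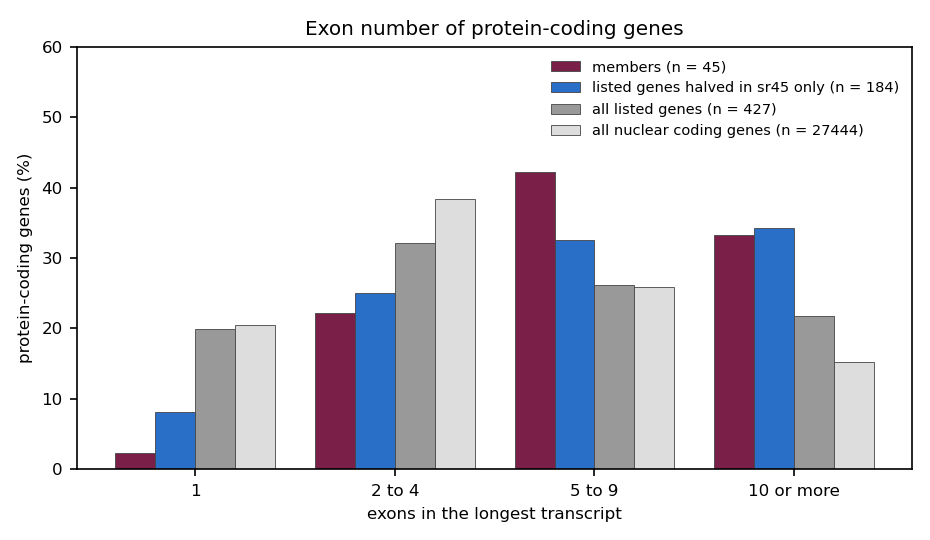
Share of protein-coding genes (%) by number of exons in the longest transcript, for the 45 coding members, 184 listed genes at or below 0.5 of Col-0 in *sr45* alone, 427 coding genes of the table and 27444 nuclear coding genes. The members and the genes low in *sr45* alone both have few genes with 1 exon and more with 10 or more exons than the table has.

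The members were spread over all chromosomes, with 17, 6, 5, 11 and 12 on chromosomes 1 to 5 (120, 88, 74, 77 and 91 for the table). Another listed gene lay within 20000 bp of 9 of 51 members, against 100 of the 450 listed genes with a gene model. No 2 members were that close to each other, but the exclusions bear on this, since *MIR850A* and AT4G13495 beside *MIR863A* met the rule and were left out by name. Another annotated gene overlapped 20 of 51 members, against 132 of 454 listed genes, on the same strand for 6 members and on the opposite strand for 16. Beside those given above, the longest overlaps on the opposite strand were 516 bp for *NRAMP6* (with AT1G15950), 394 bp for *GGPP6* (with AT1G07563) and 314 bp for *INDL* (with AT4G19550), whose values share the uncertainty about strand. Besides the G-box, the motifs searched for in the 250 bases before the start, on both strands, were the evening element (AAAATATCT), the telo-box (AAACCCTA), the site II element (TGGGCC) and the W-box core (TTGAC). The evening element was found in 1 of 51 members (1.96%, against 4.89% of listed and 2.11% of all genes), the telo-box in 1 (1.96%, against 3.11% and 4.76%), the site II element in 6 (11.8%, against 9.33% and 11.4%) and the W-box core in 25 (49.0%, against 43.8% and 43.9%). None of these motifs was shared by most of the members.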

How the data were processed

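RNA of whole seedlings was sequenced in 6 libraries, 2 for each of 3 genotypes, which were grouped by the sample descriptions. The authors quantified mRNA with vast-tools 2.5 and deposited cRPKM values, an RPKM corrected for mappable positions, after quantile normalization. The methods name the araTha10 library, an extension of Ensembl Plants 31, where they describe the splicing analysis. The genome in the submitters' processing notes is TAIR 10. The methods give a nominal number of reads per sample, but the values hold no reads. The reads behind each gene are therefore unknown, and precision comes from the spread between libraries alone. The 454 genes of the table had all been called by the authors in at least 1 line, so adjusted p-values refer to this selection. Columns without a sample: 0. Whether counting used the strand of reads is not given in the sources used here.

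Ratios were formed from means of deposited cRPKM. limma 3.58.1 in R 4.3.3 was fitted to log2(cRPKM + 1) with 1 fit of 3 genotypes and moderated variance, two-sided, and the pseudocount of 1 understates differences of low genes. The fit was tested on simulated data with known differences, which lacked the shift of the whole table, and that outcome is not reported here. Symbols came from the table (210 genes had none) and from RefSeq's TAIR10.1, in which 450 of 454 loci were found and from which coordinates, exons and sequences were taken. Exons and lengths are those of the longest transcript. Other steps ran in Python 3.11.15 with numpy 2.4.6, pandas 2.3.3 and matplotlib 3.10.9. Members, families and lists were chosen with earlier results of these data known. All members are accounted for, and statistics of the difference between lines are given for those past 0.05 and for a few with informative intervals. Other genes are named only through lists, as label checks, at the threshold, next to a member or, for the MYB genes, as relatives of a member. Alternatives covered the way ratios were formed, the threshold, the pseudocount, a filter, centring, a replicate block, the samples fitted, the variance trend and the omission of each library in turn.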

Additional observations from a re-analysis of the deposited data

Results flagged for a closer look

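For 9 members, the reductions against Col-0 in the 2 lines differed by the test of the difference itself (*sap18*-labelled libraries minus *sr45*, log2 scale, limma). The value was 1.29 for *NUDT8*, 1.098 for *AT1G11930*, 1.07 for *CBP60F*, 0.82 for *UMK2* and 0.71 for *AT1G65370*. It was 0.62 for *AT1G28610*, 0.59 for *MNS5*, 0.59 for *AT2G21385* and 0.59 for *SAC3A*. In all 9 the reduction was the smaller one in the *sap18*-labelled libraries. The table as a whole had a median difference of 0.40 in the same direction.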

How the results depend on the processing

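The number of members was 51 as reported, 52 with geometric means, 38 with a pseudocount of 1 in the ratios and 38 with Col-0 means above 10 cRPKM. It was 22 when all 4 single-library ratios had to be at or below 0.5, 17 at a threshold of 0.4, and 2 (*HRD1B* and *AT1G65370*) when each line was divided by its median ratio over the table, and from 45 to 65 when 1 library was left out. Without Col-0 replicate 1 there were 65, of which 47 were shared with the 51. Members higher in the *sap18*-labelled libraries than in *sr45* (limma) numbered 9, and 11 with a pseudocount of 5 or with limma trend, 3 after centring on the median of all listed genes and from 3 to 10 without 1 library. Members lower in the *sap18*-labelled libraries numbered 0 in all settings except centring, with 4. Settings that leave 1 library in a line assume that it varies like the others. Deviations of same-numbered libraries were nearly uncorrelated between genotypes (correlations between -0.11 and 0.08). With 2 libraries per genotype, this cannot show whether same-numbered libraries were handled together. A fit with the replicate block called the same 9 higher and 0 lower. None of the 9 called differences changed sign in these settings. Values below 5 cRPKM in the lines, and the unknown number of reads behind each gene, limit what can be said of the low members.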
